A study of Homo sapiens with 6 samples.

Results

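The 10 genes described here are the AP-1 family and immediate early factors: JUN, JUNB and JUND of the JUN family, FOS, FOSB, FOSL1 and FOSL2 of the FOS family, and the immediate early genes EGR1, IER2 and IER3. They were chosen by name, with earlier results of these data known. They were found by their Ensembl identifiers among the 60656 genes of the count table. Parental ZR-75-1 cells, an oestrogen receptor-positive human breast cancer line, were grown in RPMI-1640 with fetal bovine serum and given either DMSO, the solvent control, or abemaciclib at 500 nM, in both cases for 4 days. Abemaciclib is an inhibitor of the cell cycle kinases CDK4 and CDK6. Each group had 3 libraries from this 1 cell line, which the study's methods describe as independent biological replicates. RB1 knockout cells of the same line were not analysed here.

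AP-1 is not 1 protein but a set of dimers held together by leucine zippers. JUN proteins can pair with each other or with a FOS protein, whereas FOS proteins bind DNA well only with a partner such as a JUN protein, and different pairs differ in how strongly they activate their targets. Most of these genes are immediate early genes: their transcription starts within minutes of a growth factor or stress signal, without new protein synthesis, when ERK, JNK or p38 kinases act on factors such as SRF, the ternary complex factors and CREB already bound at their promoters. EGR1 is a zinc-finger transcription factor switched on by the same route, IER2 is a small nuclear protein, and IER3 is a stress-responsive protein linked to cell survival.

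The 3 DMSO libraries held between 3317860 and 3473916 counts on genes, and the 3 abemaciclib libraries between 3344919 and 4013156. Libraries were made from the 3' ends of mRNA, so transcript length has little effect on the counts. How evenly the 3' ends of different genes were captured and assigned was not tested, so levels set side by side between genes are approximate. Levels are given as CPM, for which the counts of a library were divided by its TMM-scaled total. The 7 luminal markers, oestrogen receptor and luminal keratin genes among them, summed to 6625 to 7235 CPM with DMSO and to 7527 to 8597 CPM with abemaciclib, with ESR1 and KRT19 called higher, KRT18 called lower and the other 4 not called. The 3 leukocyte markers were at 0 in every library, as were 3 of 4 basal markers, with KRT17 at 0 to 1.51 CPM, and 2 of 3 fibroblast markers, with COL1A1 at 10.1 to 15.7 CPM.

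The promoters of JUN, FOS, FOSL2 and EGR1 are shown because, among the genes with a promoter entry, they have the largest fold changes or, for EGR1, the highest level. Each sequence is from RefSeq on GRCh38.p14 and covers the 250 bases up to the transcription start, 5' to 3' on the gene's own strand, and capitals mark letters that match a searched motif. The windows are chr1:58784048-58784297 on the minus strand for JUN, chr14:75278578-75278827 on the plus strand for FOS, chr2:28392608-28392857 on the plus strand for FOSL2 and chr5:138465229-138465478 on the plus strand for EGR1. The position given below for the FOSL2 gene, from another annotation, begins earlier, at 28392448, so this window lies inside it. Distances for FOSL2 hold for the RefSeq start only.
JUN: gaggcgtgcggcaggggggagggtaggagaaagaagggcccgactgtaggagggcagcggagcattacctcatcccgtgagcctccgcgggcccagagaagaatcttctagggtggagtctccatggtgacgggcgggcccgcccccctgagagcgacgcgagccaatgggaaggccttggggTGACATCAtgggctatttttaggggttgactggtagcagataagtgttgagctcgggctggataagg
FOS: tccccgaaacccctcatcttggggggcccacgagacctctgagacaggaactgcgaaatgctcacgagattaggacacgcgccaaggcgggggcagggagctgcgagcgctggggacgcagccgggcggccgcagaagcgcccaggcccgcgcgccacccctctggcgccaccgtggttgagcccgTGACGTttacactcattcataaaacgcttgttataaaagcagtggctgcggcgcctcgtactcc
FOSL2: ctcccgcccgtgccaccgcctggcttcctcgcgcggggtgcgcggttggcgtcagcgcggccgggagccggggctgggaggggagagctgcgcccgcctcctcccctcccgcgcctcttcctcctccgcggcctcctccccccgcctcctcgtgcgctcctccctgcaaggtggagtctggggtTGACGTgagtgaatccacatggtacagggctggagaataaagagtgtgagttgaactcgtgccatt
EGR1: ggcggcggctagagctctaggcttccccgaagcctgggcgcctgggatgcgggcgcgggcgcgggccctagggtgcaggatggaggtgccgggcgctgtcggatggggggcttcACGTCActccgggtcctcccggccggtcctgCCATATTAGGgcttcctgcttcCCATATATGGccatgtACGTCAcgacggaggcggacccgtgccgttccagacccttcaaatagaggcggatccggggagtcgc

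The capitals in JUN are TGACATCA, an AP-1-like site known to be bound by JUN and ATF2, which began 67 bases before the start. In FOS and FOSL2 they are TGACGT, the core of the cAMP response element bound by CREB and ATF proteins, 64 and 66 bases before the start. EGR1 held this core on the other strand, as ACGTCA, at 136 and 67 bases before the start, and between them the longer capitals are 2 CArG boxes, the element bound by SRF, at 105 and 83 bases.

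Motifs were searched on both strands in windows of 300 bases, 250 before and 50 after the start, of 35116 RefSeq promoters. Of the 10 genes, 8 had a window, and FOSL1 and IER3 had no entry. The core TGACGT was present in 5 of the 8 (FOS, FOSB, FOSL2, JUND and EGR1) and in 7.98% of all windows. Where it forms the palindrome TGACGTCA, as in JUND, both strands have a match and the matches overlap. The TRE, TGACTCA, the classical AP-1 site, was found only in FOSL2, from base 5 to base 11 after the start and therefore beyond the sequence shown, and in 4.95% of all windows. TGACATCA was found only in JUN among the 8 and in 2.61% of all windows, and a CArG box only in EGR1 and in 1.29%. The E2F sites TTTGGCGC and TTTCCCGC were in 0 of the 8 and in 2.27% of all windows, and the oestrogen response element was in 0 of the 8 and in 0.0570%. These matches describe letters in a fixed window and say nothing of binding.

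Of the 10 genes, 9 had enough counts to be tested, and JUN, FOS and IER3 were higher and FOSL2 was lower with abemaciclib. JUN rose 1.95-fold, FOS 1.70-fold and IER3 1.52-fold, while FOSL2 fell to 0.402 of its DMSO level. JUNB, JUND, FOSB, EGR1 and IER2 did not pass the test, and FOSL1 had too few counts for it. In bulk RNA, a change in the number of cells with a transcript and in its amount per cell cannot be told apart. P-values are from the quasi-likelihood test of edgeR, adjusted by Benjamini-Hochberg over the 10863 genes tested at a threshold of 0.05, and are written below as the edgeR adjusted p. The 3 genes called higher were 3 of 9 (33.3%), where 12.5% of all genes tested were called higher. The 1 called lower was 1 of 9 (11.1%), where 13.3% of all genes were. Because the genes were chosen with earlier results of these data known, these shares are descriptive, and the list was not tested as a set. In 3 of the 9 the abemaciclib libraries all lay above the DMSO libraries, as in 19.1% of all genes tested, and in 1 they all lay below, as in 20.0% of all genes.

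The median log2 fold change of the 9 tested genes was 0.36, against -0.00 over all genes tested, and 8 of the 9 values were positive. With FOSL1 included at the bound given below, the median of the 10 was 0.27. The count of genes called higher depended on abemaciclib replicate 3. Without that library 6 of the 9 were higher, with JUNB, FOSB and EGR1 added to JUN, FOS and IER3. Of all genes tested, 1412 of 11218 were higher without it, and 1354 of 10863 with all libraries. Without abemaciclib replicate 3 the log2 fold changes were 0.51 for JUNB, 0.67 for FOSB and 0.25 for EGR1. Without DMSO replicate 3 instead, they were 0.20, 0.65 and 0.05. In that comparison 3 of the 9 were higher, and 1088 of 11239 of all genes tested. The median of the 9 was 0.51 without abemaciclib replicate 3 and 0.20 without DMSO replicate 3.

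**Figure D1:**
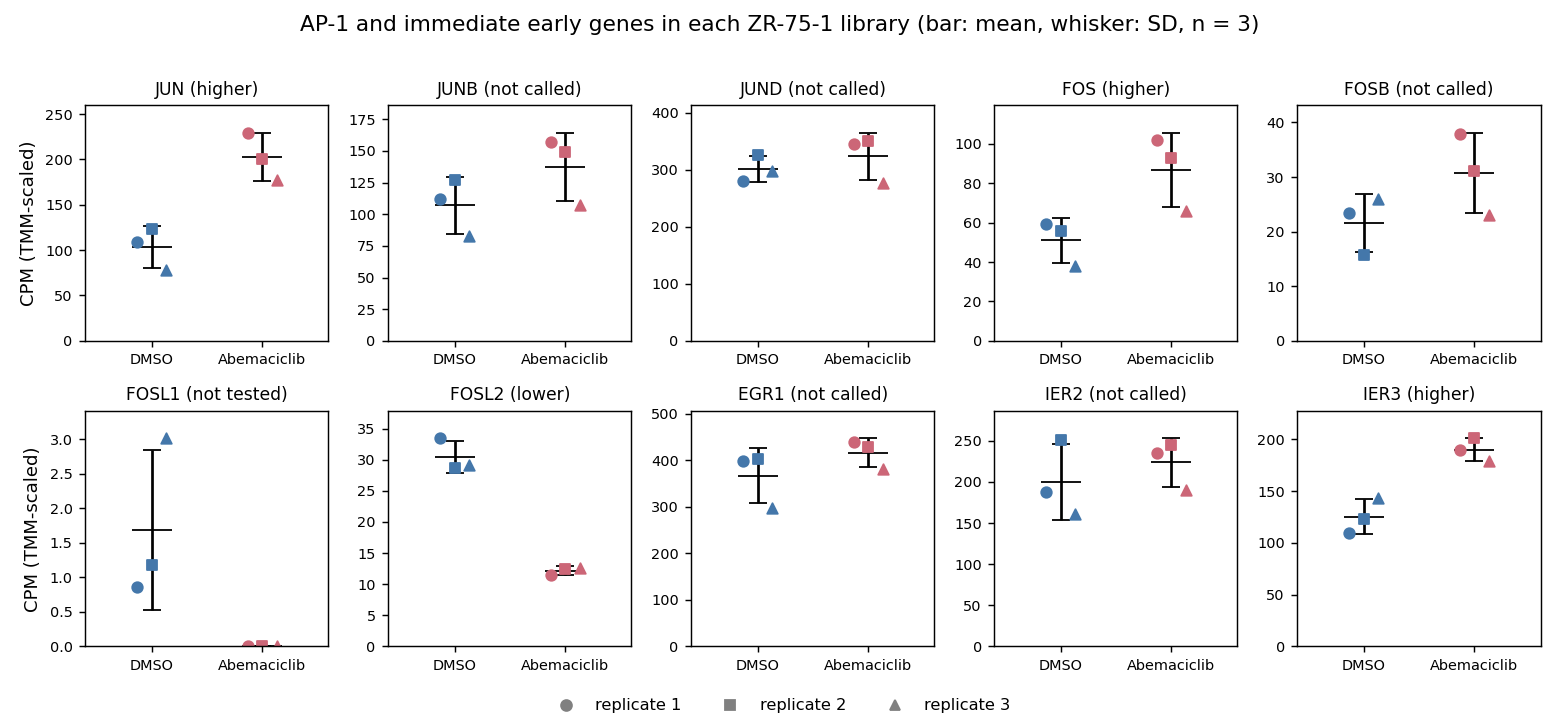
CPM of each of the 10 genes in each of the 6 libraries, by treatment, with the mean as a bar and the SD over 3 libraries as a whisker, and with each panel on its own scale from 0. JUN, FOS and IER3 lie higher in all abemaciclib libraries and FOSL2 lower in all of them, while replicate 3 (triangles) is the lowest library of both groups for JUN, JUNB, FOS, EGR1 and IER2.

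Gene positions below are on GRCh38. JUN (ENSG00000177606.7, chromosome 1, 58776845 to 58784048, minus strand) encodes c-Jun, the most potent activator of its family and the main substrate of JNK. Its level was 109, 123 and 77.7 CPM in DMSO replicates 1, 2 and 3 and 230, 201 and 177 CPM in abemaciclib replicates 1, 2 and 3. The lowest abemaciclib library was above the highest DMSO library. The mean went from 103 ± 23.4 CPM to 203 ± 26.4 CPM (SD, n = 3 each), a log2 fold change of 0.97 (SE 0.13, edgeR adjusted p = 2.31e-06), which put JUN at percentile 96.0 of all fold changes. Its log2 fold change stayed between 0.80 and 1.11 when each library was left out in turn.

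JUNB (ENSG00000171223.6, chromosome 19, 12791486 to 12793315, plus strand) encodes a weaker activator that can hold c-Jun in check. It had 112, 127 and 82.5 CPM in the DMSO libraries and 157, 149 and 107 CPM in the abemaciclib libraries, in replicate order. The groups overlapped through abemaciclib replicate 3, which lay below DMSO replicates 1 and 2. The means were 107 ± 22.5 and 138 ± 26.8 CPM (SD, n = 3 each), and the log2 fold change of 0.36 (SE 0.14, edgeR adjusted p = 0.0654) did not pass the threshold. It did pass without DMSO replicate 2 or without abemaciclib replicate 3, at log2 fold changes of 0.49 and 0.51. With no filter on low counts it also passed (edgeR adjusted p = 0.0245). JUNB did not pass without DMSO replicate 1 or 3, at 0.39 and 0.20, or without abemaciclib replicate 1 or 2, at 0.26 and 0.30. Nor did it pass with DESeq2 (DESeq2 adjusted p = 0.129).

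JUND (ENSG00000130522.6, chromosome 19, 18279694 to 18281622, minus strand) is the family member that is present in resting cells and reacts least to stimuli. It was the most abundant JUN gene, at 281, 326 and 298 CPM with DMSO and 346, 350 and 276 CPM with abemaciclib. Abemaciclib replicate 3 was the lowest of the 6 libraries and the other two abemaciclib libraries were the highest, so the groups overlapped. The means of 302 ± 22.8 and 324 ± 41.5 CPM (SD, n = 3 each) differed by a log2 fold change of 0.10 (SE 0.10, edgeR adjusted p = 0.533).

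FOS (ENSG00000170345.10, chromosome 14, 75278826 to 75282230, plus strand) encodes c-Fos, the founding FOS protein and a textbook immediate early product. The DMSO libraries had 59.1, 55.8 and 37.96 CPM and the abemaciclib libraries 102, 92.8 and 65.9 CPM. All abemaciclib libraries were above all DMSO libraries, with abemaciclib replicate 3 the closest to them. FOS rose from 51.0 ± 11.4 to 86.9 ± 18.8 CPM (SD, n = 3 each), with a log2 fold change of 0.77 (SE 0.17, edgeR adjusted p = 0.000853), at percentile 93.1 of all genes tested.

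FOSB (ENSG00000125740.14, chromosome 19, 45467995 to 45475179, plus strand) is a close relative of FOS whose splice forms, among them the truncated ΔFosB, are not told apart by counts at the 3' end. Its values were 23.4, 15.7 and 25.9 CPM with DMSO and 37.9, 31.2 and 23.1 CPM with abemaciclib. Abemaciclib replicate 3 lay below DMSO replicates 1 and 3, and the groups overlapped. Means of 21.6 ± 5.34 and 30.7 ± 7.41 CPM (SD, n = 3 each) gave a log2 fold change of 0.50 (SE 0.22, edgeR adjusted p = 0.0985).

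FOSL1 (ENSG00000175592.9, chromosome 11, 65892049 to 65900573, minus strand) encodes FRA1, which lacks the strong activation domain of c-Fos and is typical of basal-like and invasive breast cancer cells. It was the least abundant of the 10, with 3, 4 and 10 counts in the DMSO libraries (0.865, 1.18 and 3.01 CPM) and 0 counts in all 3 abemaciclib libraries. Over each group as a whole this was 17 counts, or 1.67 CPM, against 0 counts. A count of 0 allows up to 3 counts, here 0.270 CPM over the 3 abemaciclib libraries. With the 1.67 CPM of the DMSO group taken as exact, FOSL1 was then at least 6.19-fold lower with abemaciclib. This bound covers the counting error of the 0 only, not that of the 17 DMSO counts or the spread between libraries. DMSO replicate 3 alone held 10 of the 17 counts. FOSL1 was removed by the filter on low counts. With no such filter it was called lower (edgeR adjusted p = 0.0228), and DESeq2 gave it an unadjusted p of 0.0035 and no adjusted p.

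FOSL2 (ENSG00000075426.12, chromosome 2, 28392448 to 28417317, plus strand) encodes FRA2, the other FOS protein without a strong activation domain. The DMSO libraries had 33.5, 28.7 and 29.2 CPM and the abemaciclib libraries 11.4, 12.5 and 12.6 CPM. The groups were far apart and each was tight. FOSL2 fell from 30.4 ± 2.63 to 12.2 ± 0.660 CPM (SD, n = 3 each), a log2 fold change of -1.32 (SE 0.22, edgeR adjusted p = 3.15e-05), at percentile 4.46 of all genes tested. Leaving out each library in turn kept the log2 fold change between -1.36 and -1.25.

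**Figure D2:**
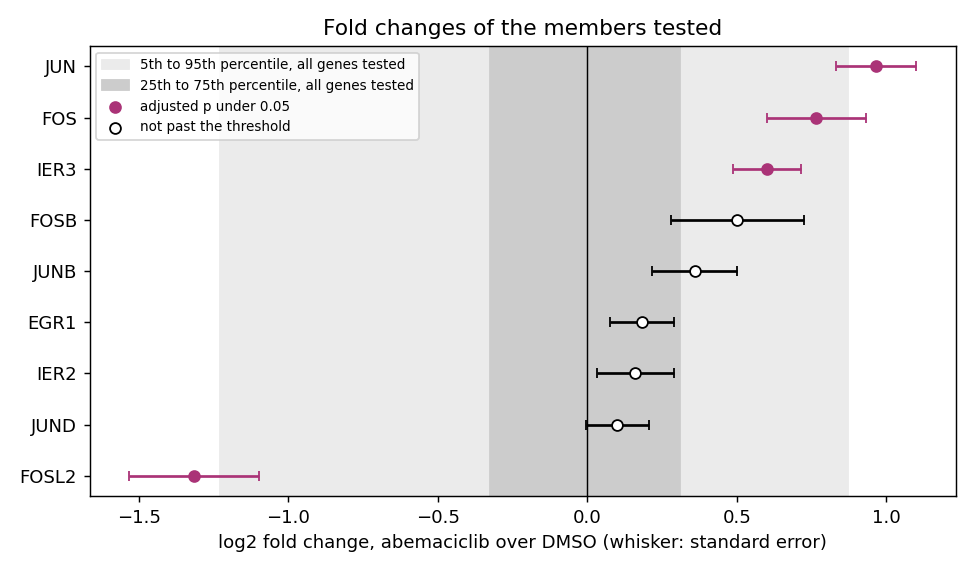
Log2 fold change of the 9 tested genes, abemaciclib over DMSO, with the SE as a whisker, over grey bands for the 5th to 95th (-1.23 to 0.87) and the 25th to 75th (-0.32 to 0.31) percentiles of all 10863 genes tested. JUN lies above and FOSL2 below the wider band, and EGR1, IER2 and JUND lie inside the narrower one.

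The make-up of each family's mRNA differed between the groups. JUN made up 20.0% ± 2.68 of the summed JUN family CPM with DMSO and 30.6% ± 1.59 with abemaciclib (SD, n = 3 each), with libraries at 17.0% to 21.8% and at 28.7% to 31.6%. JUND went from 59.2% ± 5.09 to 48.8% ± 1.46, also without overlap, and JUNB was at 20.8% and 20.6%. A share within 1 library does not depend on how the libraries were scaled, but the shares of a family are tied to each other, and no test was run on them.

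In the FOS family, FOS took 48.4% ± 8.03 with DMSO and 66.7% ± 1.69 with abemaciclib, while FOSL2 took 29.1% ± 1.14 and 9.72% ± 2.49 (SD, n = 3 each). Libraries ranged from 39.5% to 55.1% and from 64.8% to 68.0% for FOS, and from 28.3% to 30.4% and from 7.55% to 12.4% for FOSL2. FOSB was at 20.8% ± 5.80 and 23.5% ± 1.30, and FOSL1 at 0.741% to 3.13% with DMSO and 0% with abemaciclib. The ratio of FOS to FOSL2 was 1.30 to 1.95 in the DMSO libraries and 5.21 to 8.92 in the abemaciclib libraries, with means of 1.67 ± 0.335 and 7.18 ± 1.86.

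Summed levels did not separate the groups. The JUN family summed to 512 ± 59.6 CPM with DMSO and 664 ± 91.6 CPM with abemaciclib, and the FOS family to 105 ± 10.8 and 130 ± 25.5 CPM (SD, n = 3 each), and in both families the libraries of the 2 groups overlapped. The summed JUN family CPM was 4.92 ± 0.705 times the summed FOS family CPM with DMSO and 5.16 ± 0.337 times with abemaciclib. Protein and its phosphorylation, through which AP-1 is largely controlled, were not measured in these files.

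**Figure D3:**
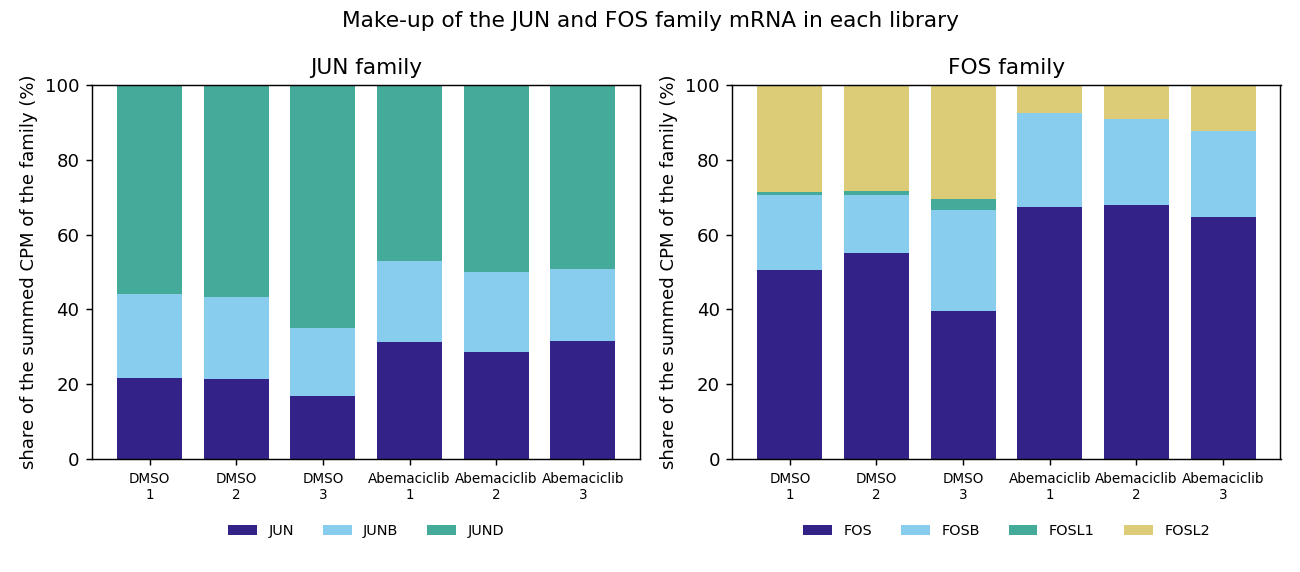
Share of each gene in the summed CPM of its family (%) in each of the 6 libraries, stacked to 100, for the JUN family and the FOS family. JUN and FOS take a larger share and JUND and FOSL2 a smaller one in all 3 abemaciclib libraries than in any DMSO library.

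EGR1 (ENSG00000120738.8, chromosome 5, 138465479 to 138469303, plus strand) was the most abundant of the 10 genes in both groups. It had 399, 402 and 298 CPM with DMSO and 439, 429 and 381 CPM with abemaciclib. The groups overlapped, because abemaciclib replicate 3 lay below DMSO replicates 1 and 2. The means of 366 ± 59.2 and 416 ± 30.8 CPM (SD, n = 3 each) gave a log2 fold change of 0.18 (SE 0.11, edgeR adjusted p = 0.225).

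IER2 (ENSG00000160888.7, chromosome 19, 13150411 to 13154911, plus strand) had 188, 251 and 161 CPM with DMSO and 235, 245 and 190 CPM with abemaciclib. The highest library of all was DMSO replicate 2. Its means were 200 ± 46.0 and 224 ± 29.5 CPM (SD, n = 3 each), with a log2 fold change of 0.16 (SE 0.13, edgeR adjusted p = 0.396).

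IER3 (ENSG00000137331.12, chromosome 6, 30743199 to 30744548, minus strand), a target of NF-κB and p53 as well as of ERK signalling, had 110, 123 and 144 CPM with DMSO and 190, 201 and 179 CPM with abemaciclib. The lowest abemaciclib value lay above the highest DMSO value. IER3 rose from 125 ± 17.2 to 190 ± 11.1 CPM (SD, n = 3 each), a log2 fold change of 0.60 (SE 0.11, edgeR adjusted p = 0.000182), at percentile 88.9. It was the only 1 of the 10 whose last 500 bases overlapped another annotated gene, IER3-AS1 on the opposite strand. That gene had 0 counts in 5 libraries and 3 counts in abemaciclib replicate 2.

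Ordered by mean CPM, the 10 genes ran with DMSO as EGR1, JUND, IER2, IER3, JUNB, JUN, FOS, FOSL2, FOSB and FOSL1. EGR1 and JUND had overlapping libraries, as did IER3, JUNB and JUN. With abemaciclib the order was EGR1, JUND, IER2, JUN, IER3, JUNB, FOS, FOSB, FOSL2 and FOSL1. IER2, JUN and IER3 then had overlapping libraries, and EGR1 and JUND no longer did. JUN moved ahead of IER3 and JUNB, and FOSB ahead of FOSL2.

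On chromosome 19 lie 4 of the 10 genes. JUNB and IER2 are 357 kb apart, IER2 and JUND 5125 kb, and JUND and FOSB 27186 kb. All 4 had positive log2 fold changes, from 0.10 to 0.50, and none passed the test.

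The replicate number moved with the levels of several of these genes. Replicate 3 was the lowest library of both groups for 5 of the 9 tested genes, JUN, JUNB, FOS, EGR1 and IER2, which is 55.6%, where 9.91% of all genes tested had their lowest value there in both groups. Replicates 1 and 2 were the lowest in both groups for 0 of the 9. Relative to its group mean, FOS deviated in replicate 3 by -0.39 (log2) with DMSO and by -0.37 with abemaciclib, and JUNB by -0.35 and -0.34. IER3 went the other way with DMSO, at 0.20, as did FOSB, at 0.28.

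The median deviation of the 9 genes in replicate 3 was -0.28 with DMSO and -0.22 with abemaciclib, against 0.00 and 0.01 over all genes tested. Among 26 tested genes of a list of other immediate early genes, 7 (26.9%) were lowest in replicate 3 of both groups. The labels do not say what the replicate number marks. A comparison without replicate 3 in either group was added after the values were seen. JUN, FOS, JUNB and FOSB then had log2 fold changes of 0.89, 0.76, 0.36 and 0.82. EGR1 was at 0.12 and FOSL2 at -1.37.

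**Figure D4:**
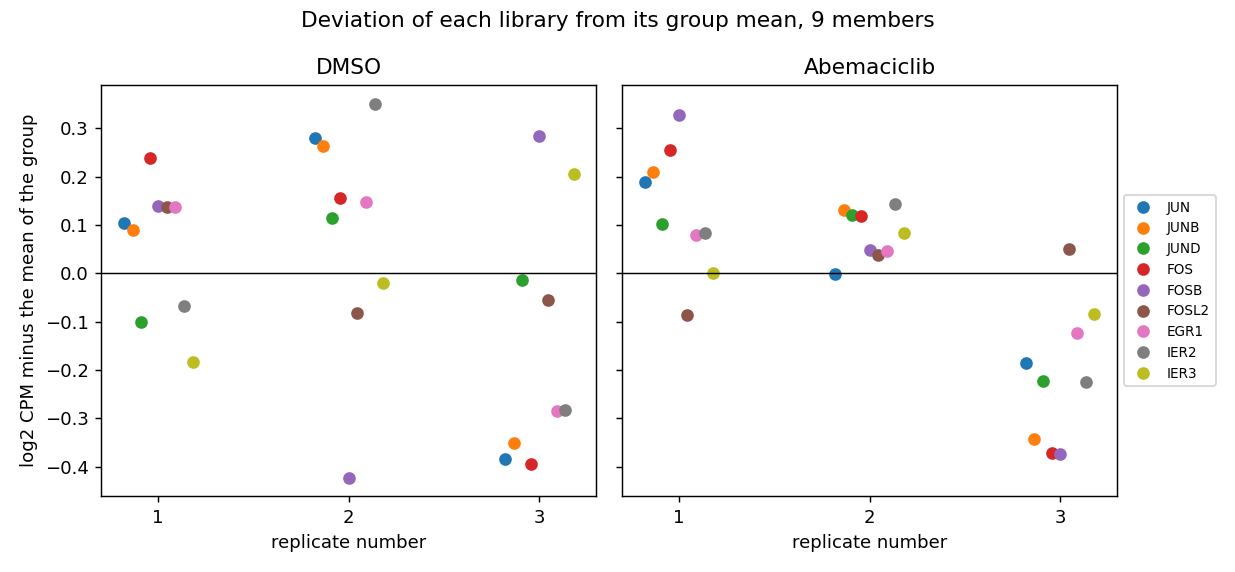
Deviation of log2 CPM from the mean of the group (vertical axis) by replicate number (horizontal axis), for the 9 tested genes with DMSO and with abemaciclib, 1 point a library. In replicate 3, JUN, JUNB, FOS, EGR1 and IER2 lie below 0 in both panels, while IER3 and FOSB lie above 0 with DMSO and FOSL2 with abemaciclib.

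The lists of related genes from here on were also written with earlier results of these data known. Other bZIP proteins share partners and sites with JUN and FOS. Of 13 ATF, BATF, JDP and MAF genes, 9 were tested, 1 (11.1%) was higher and 3 (33.3%) were lower. Of all genes tested, 12.5% were higher and 13.3% lower. The median log2 fold change of the 9 was -0.24. JDP2, a repressor that pairs with JUN proteins, fell from 25.4 ± 6.26 to 8.28 ± 4.09 CPM (log2 fold change -1.64, SE 0.30, edgeR adjusted p = 0.000133). ATF3, a stress-induced partner of JUN, fell from 20.5 ± 2.62 to 10.1 ± 1.31 CPM (log2 fold change -1.03, SE 0.25, edgeR adjusted p = 0.00322). MAFG, a small MAF protein, fell from 68.4 ± 5.04 to 49.0 ± 5.27 CPM, a call lost without DMSO replicate 1 or abemaciclib replicate 1. BATF, a partner of JUN proteins best known from lymphocytes, rose from 2.35 ± 0.833 to 6.31 ± 0.845 CPM. BATF had only 5 to 27 counts a library, and its call was lost with DESeq2 and in 5 of the 6 comparisons that left out 1 library, all but the one without DMSO replicate 1.

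Other immediate early genes moved in both directions. Of 32 listed, 26 were tested, 6 (23.1%) were higher and 3 (11.5%) were lower, with a median log2 fold change of 0.19. Of all genes tested, 12.5% were higher and 13.3% lower. EGR3, a relative of EGR1, rose from 23.4 ± 1.16 to 78.5 ± 20.1 CPM (log2 fold change 1.74, SE 0.18, edgeR adjusted p = 1.46e-08). CCN1, a secreted matrix protein also called CYR61, rose from 12.7 ± 1.38 to 26.9 ± 3.37 CPM, and DUSP1, a phosphatase that switches off MAP kinases, from 15.2 ± 5.42 to 30.0 ± 5.30 CPM. PLK2, ZFP36 and ZFP36L1, named after their values were seen, were the remaining genes called higher, and the calls of ZFP36 and ZFP36L1 were near the threshold. ZFP36 was not called with DESeq2, nor when replicate 2 or 3 of DMSO or replicate 1 or 2 of abemaciclib was left out, and ZFP36L1 was not called when replicate 2 or 3 of DMSO was left out.

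The 3 that fell included ARC and IER5, with larger fitted falls than that of FOSL2. ARC, an immediate early gene best known from neurons, had 15, 25 and 30 counts with DMSO and 1, 3 and 0 with abemaciclib (log2 fold change -4.14, SE 0.71, edgeR adjusted p = 4.9e-05). At such counts the size rests on single libraries, and without abemaciclib replicate 2 the log2 fold change was -5.28. IER5, a relative of IER2, fell from 51.5 ± 9.88 to 14.2 ± 1.37 CPM (log2 fold change -1.86, SE 0.20, edgeR adjusted p = 2.35e-08). BTG1, an antiproliferative gene, fell from 171 ± 22.3 to 115 ± 11.0 CPM. For IER2 and IER5 the fold changes were 0.16 and -1.86 on the log2 scale.

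Upstream of these genes, 24 of 26 genes of the ERK, JNK and p38 cascade were tested, with a median of -0.06 on the log2 scale. In this list 3 (12.5%) were higher and 4 (16.7%) lower, where 12.5% and 13.3% of all genes tested were. MAPKAPK2, a kinase downstream of p38, rose from 432 ± 20.8 to 625 ± 78.8 CPM (log2 fold change 0.53, SE 0.10, edgeR adjusted p = 0.00015), and MAPK3, which encodes ERK1, fell from 233 ± 19.7 to 155 ± 9.23 CPM (log2 fold change -0.59, SE 0.10, edgeR adjusted p = 8.99e-05). The other calls were close to the threshold. The kinases MAP2K4 and MAP2K3 were higher, at log2 fold changes of 0.72 and 0.34, with edgeR adjusted p of 0.0462 and 0.0258. HRAS was lower, at -0.73 (edgeR adjusted p = 0.048), and so was MAPK13, named after its values were seen, at -0.43, a call lost with DESeq2 and without DMSO replicate 1, 2 or 3 or abemaciclib replicate 2. MAP2K4 and HRAS did not pass with DESeq2 or with no filter on low counts. The call of HRAS was also lost without DMSO replicate 2 or 3 or abemaciclib replicate 2 or 3. That of MAP2K4 was lost without any single library other than abemaciclib replicate 3. That of MAP2K3 was lost without DMSO replicate 1 or 3 or abemaciclib replicate 3. The 3' end of HRAS overlaps a gene on the opposite strand, and whether the counting used strand is not stated. The number lower in this list was 1 without DMSO replicate 2 or abemaciclib replicate 2 and 2 without DMSO replicate 3. The number higher was 1 without DMSO replicate 1 or DMSO replicate 3.

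Of 14 genes for factors that bind immediate early promoters, 13 were tested, with a median log2 fold change of -0.09. Here 1 (7.69%) was higher and 1 (7.69%) lower, where 12.5% and 13.3% of all genes tested were. CREB1, the factor that binds the cAMP response element, fell from 55.4 ± 3.83 to 35.6 ± 1.29 CPM (log2 fold change -0.64, SE 0.15, edgeR adjusted p = 0.00263). CRTC1, a coactivator of CREB, rose from 2.66 ± 0.352 to 10.0 ± 4.75 CPM (log2 fold change 1.90, SE 0.46, edgeR adjusted p = 0.00254). Its counts were low, at 8, 9 and 10 with DMSO and 44, 50 and 17 with abemaciclib. With each library left out in turn its log2 fold change ran from 1.66 to 2.25. Without abemaciclib replicate 1, 2 genes of this list were lower.

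Of 10 regulators of AP-1 or EGR1 protein, such as the ubiquitin ligase subunit FBXW7 and the EGR1 corepressors NAB1 and NAB2, 8 were tested. Of these, 0 passed edgeR's test in either direction, where 12.5% of all genes tested were higher and 13.3% lower. At an unadjusted edgeR p under 0.05, 1 of the 8 was higher and 0 lower. Of all 10863 genes tested, 1940 were higher and 1986 lower at that unadjusted p. DESeq2 also called 0. The 1 was MEN1, the JUND-binding protein menin, at 8.51 ± 3.32 and 14.4 ± 3.40 CPM, and it passed the adjusted threshold without abemaciclib replicate 3.

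Among 18 genes known as AP-1 targets 7 were tested, 11 had too few counts, and 7 of those 11 were at 0 in every library. Of the 7 tested, 2 (28.6%) were higher and 1 (14.3%) lower, where 12.5% and 13.3% of all genes tested were. TIMP1, an inhibitor of matrix proteases, rose from 10.2 ± 4.91 to 40.1 ± 7.98 CPM (log2 fold change 1.98, SE 0.26, edgeR adjusted p = 6.78e-07), and CCND1, which encodes cyclin D1, a partner of CDK4 and CDK6, from 1173 ± 21.2 to 2970 ± 58.9 CPM (log2 fold change 1.34, SE 0.08, edgeR adjusted p = 2.85e-13). LTO1, with 30 to 89 counts a library, overlaps the end of CCND1 from the other strand. CD44, a cell surface glycoprotein, fell from 12.2 ± 4.27 to 5.31 ± 1.85 CPM (log2 fold change -1.18, SE 0.37, edgeR adjusted p = 0.0185), and that call was lost without DMSO replicate 1, DMSO replicate 3 or abemaciclib replicate 3. The median of the 7 was 0.13.

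**Figure D5:**
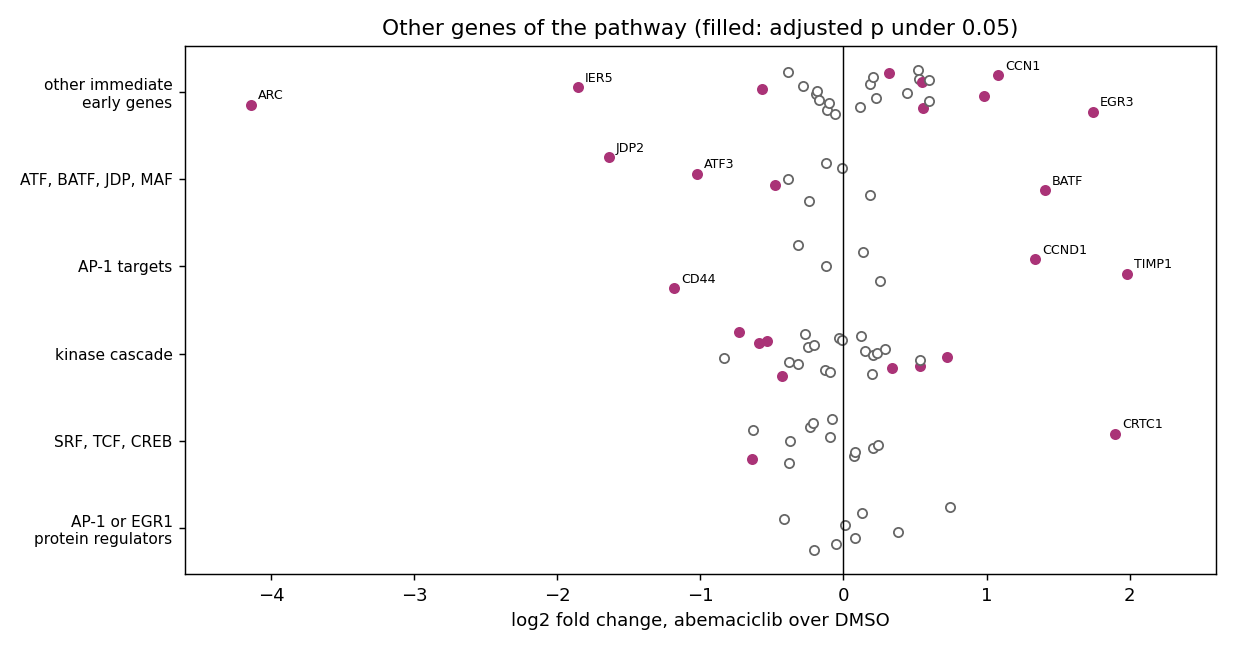
Log2 fold change of each tested gene (horizontal axis, abemaciclib over DMSO) in 6 lists of related genes (vertical axis, jittered), with filled points for an edgeR adjusted p under 0.05. Most kinase and promoter-factor genes lie near 0, and the largest changes are the fall of ARC at -4.14 and the rises of TIMP1 at 1.98 and CRTC1 at 1.90.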

How the data were processed

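RNA of 6 libraries of ZR-75-1 cells was compared, 3 with DMSO and 3 with abemaciclib, grouped by the treatment in the labels. The authors trimmed the reads of 3' mRNA libraries, aligned them to hg38 with STAR 2.7.5b and counted them per gene with featureCounts 2.0.1, and the deposited values are raw counts. Whether strand was used is not given in the sources used here.

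Counts were analysed with edgeR 4.0.16 in R 4.3.3 (TMM factors, filterByExpr, glmQLFit, glmQLFTest, Benjamini-Hochberg adjustment). The SE is the log2 fold change divided by the square root of F. CPM SDs are over 3 libraries. The biological coefficient of variation was 13.2%. DESeq2 1.42.0, other scalings and filters, a replicate block and left-out libraries were alternatives.

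The members and lists were chosen with earlier results of these data known. Named were all 10 members and, per list, the 3 largest rises and 3 largest falls past the threshold, except 1 gene that is not reported here. No list was tested as a set. Gene positions and 3' overlaps are from a later GENCODE release on GRCh38.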

Additional observations from a re-analysis of the deposited data

How the results depend on the processing

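No log2 fold change named above reversed under any alternative, and the calls of JUN, FOS, IER3 and FOSL2 held under all of them. With no filter on low counts, 2 members were lower, since FOSL1 joined FOSL2. Leaving out each library in turn gave 3 to 6 members higher and, of all genes tested, 981 to 1412 higher. Leaving out replicate 3 in both groups, an alternative chosen after seeing the data, gave the 9 tested members a median log2 fold change of 0.36. JUNB passed under 5 alternatives, FOSB under 2 and EGR1 under 1. The labels number the replicates 1 to 3 in both groups and do not say whether the numbers pair the samples. Over 10863 genes the deviations of same-numbered libraries correlated at -0.04, 0.01 and -0.09. Not every library correlated best with its own number. Correlations over all genes cannot decide on a link limited to few genes, such as the 5 members lowest in replicate 3 of both groups. With the replicate block JUNB passed (log2 fold change 0.36, edgeR adjusted p = 0.0419), the kinase cascade had 1 gene higher and 2 lower, and 0 ATF, BATF, JDP or MAF genes were higher.

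With DESeq2 the kinase cascade had 1 gene lower and 0 ATF, BATF, JDP or MAF genes were higher, and with no filter the kinase cascade had 2 lower. With at least 10 counts in every library, 0 ATF, BATF, JDP or MAF genes and 0 promoter-binding factors were higher, since fewer genes were tested. With each library left out in turn, 0 to 1 ATF, BATF, JDP or MAF genes were higher, 4 to 6 other immediate early genes higher, 1 to 2 kinase cascade genes higher and 1 to 4 lower, 1 to 2 promoter-binding factors lower, 0 to 1 regulators higher and 0 to 1 AP-1 targets lower. The cause of these changes was otherwise not tested. Depth limits FOSL1, BATF, ARC and CRTC1, and the bound of FOSL1 covers the counting error of its 0 count only.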
